A study of Homo sapiens with 6 samples.

Results

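Nuclear receptors were examined in T24 cells, an established line from a human bladder carcinoma, after silencing of TRIM28, a chromatin-bound corepressor and SUMO ligase. The set held 37 named nuclear receptor genes of the 78932 genes in the deposited count table. It was defined by gene symbol, with earlier results of these data known. PPARG, its RXRA and RXRB partners and the other receptors outside the set numbered 11, which brought the superfamily to 48 genes. A member was taken as expressed where 10 or more reads were counted in at least 3 of the 6 libraries, and as silent otherwise. By this rule 22 members were expressed and 15 were silent.

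The 3 siTRIM28 cultures were transfected with siRNA against TRIM28 and the 3 siNC cultures with a control siRNA, and every library carried the same batch label. No other treatment is labelled. Both groups were grown in medium with fetal bovine serum, which carries hormones and retinoids in an amount not measured here. Each culture gave 1 poly(A) RNA-seq library, so RNA abundance was measured and receptor protein was not. The labels name the agent only as siTRIM28, and an effect of the siRNA other than the loss of TRIM28 cannot be told apart from that loss. Because the design is bulk, fewer cells of a kind and less RNA per cell cannot be told apart either.

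Nuclear receptors are transcription factors that bind DNA through a pair of zinc fingers and sense small lipophilic ligands through a separate pocket. Steroid receptors bind DNA as homodimers, and some, such as the glucocorticoid receptor, wait in the cytoplasm on HSP90 chaperones. Most retinoid, thyroid, vitamin D and PPAR receptors sit on DNA as heterodimers with RXR, and several orphan receptors, such as the COUP-TF and REV-ERB proteins, act mainly as repressors. In urothelium, retinoid and PPAR signalling are known for their part in differentiation.

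The libraries held between 11712623 and 14018052 counted reads. TRIM28 had 1419, 1393 and 1382 reads in the siNC libraries and 130, 96 and 109 in the siTRIM28 libraries. Its level went from 104 ± 4.09 to 8.87 ± 0.658 CPM (TMM-scaled counts relative to the library total; mean ± SD, n = 3 in each group), a log2 fold change of -3.54 (SE 0.0723, adjusted p = 1.03e-10). Here and throughout, the log2 fold change is written log2FC, CPM values are scaled by TMM, fold changes are siTRIM28 over siNC, and adjusted p values come from edgeR's quasi-likelihood test across 18474 genes with Benjamini-Hochberg adjustment, with a gene called changed at an adjusted p under 0.05. Replicates were not equally close. The counts of siNC replicates 1 and 2 gave a chi-square per degree of freedom of 1.08 and those of siTRIM28 replicates 2 and 3 gave 1.22, where 1 is counting noise alone, and the other 4 within-group pairs gave 4.17 to 6.25. The cells carried KRT8 (104 CPM in siNC) and VIM (1102 CPM), whereas UPK1B was at 0 and CDH1 at 3 reads in all. Of 14 urothelial and epithelial markers 6 passed the count filter, as did 4 of 4 mesenchymal markers, 0 of 4 blood, 0 of 3 endothelial and 1 of 4 fibroblast markers. Most defining genes of differentiated urothelium were absent or under the filter, and the markers that passed were KRT8 and KRT18 and, at lower levels, KRT7, TP63, FOXA1 and UPK1A, the last at 0.874 CPM in siNC and 3.41 CPM in siTRIM28. TP63 reached 10 reads only in the siTRIM28 libraries (9, 4 and 6 reads in siNC, 11, 15 and 10 in siTRIM28). Summed urothelial and epithelial markers ranged from 193 to 200 CPM in siNC and from 213 to 221 CPM in siTRIM28, and summed mesenchymal markers from 1563 to 1610 and from 1817 to 1930 CPM. The epithelial sum was mostly KRT8 and KRT18, and its genes did not all move alike. KRT7, KRT8, TP63 and UPK1A were called higher, whereas KRT18 and FOXA1 were not called. Among markers under the filter, EPCAM, GATA3 and KRT19 had lower means in siTRIM28 and UPK2 was level. The summed fibroblast markers, mostly COL1A1, ranged from 1.16 to 2.02 and from 2.86 to 4.31 CPM. The part of these marker shifts in the results on receptors was not tested.

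In control cells the highest levels among the 37 members were those of the oestrogen-related receptor ESRRA, the glucocorticoid receptor NR3C1 and the fatty acid sensor PPARD. Per kilobase of the gene length in the count table, their siNC levels were 6.32 ± 0.365, 6.30 ± 0.264 and 6.11 ± 0.232 CPM per kilobase (n = 3), and neighbours in this order overlapped between libraries. Outside the set, the oxysterol receptor NR1H2 stood higher, at 14.9 ± 0.166 CPM per kilobase. The testicular receptor NR2C1 followed at 5.26 and the retinoic acid receptor RARG at 5.0, again with overlapping libraries. NR1D2, THRA and NR2C2 lay between 4.14 and 4.32 CPM per kilobase, and NR2F1 and NR2F6 were level at 3.85. Below these came NR2F2 at 2.19, NR1D1 at 1.78, and RARA and VDR, both at 1.46. PPARA stood at 0.865, NR6A1 at 0.692 and RORA at 0.443. The lowest were NR4A2 (0.345), RORB (0.255), HNF4G (0.138), NR4A1 (0.0844) and ESR2 (0.0553), all with CPM per kilobase as the scale.

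**Figure D1:**
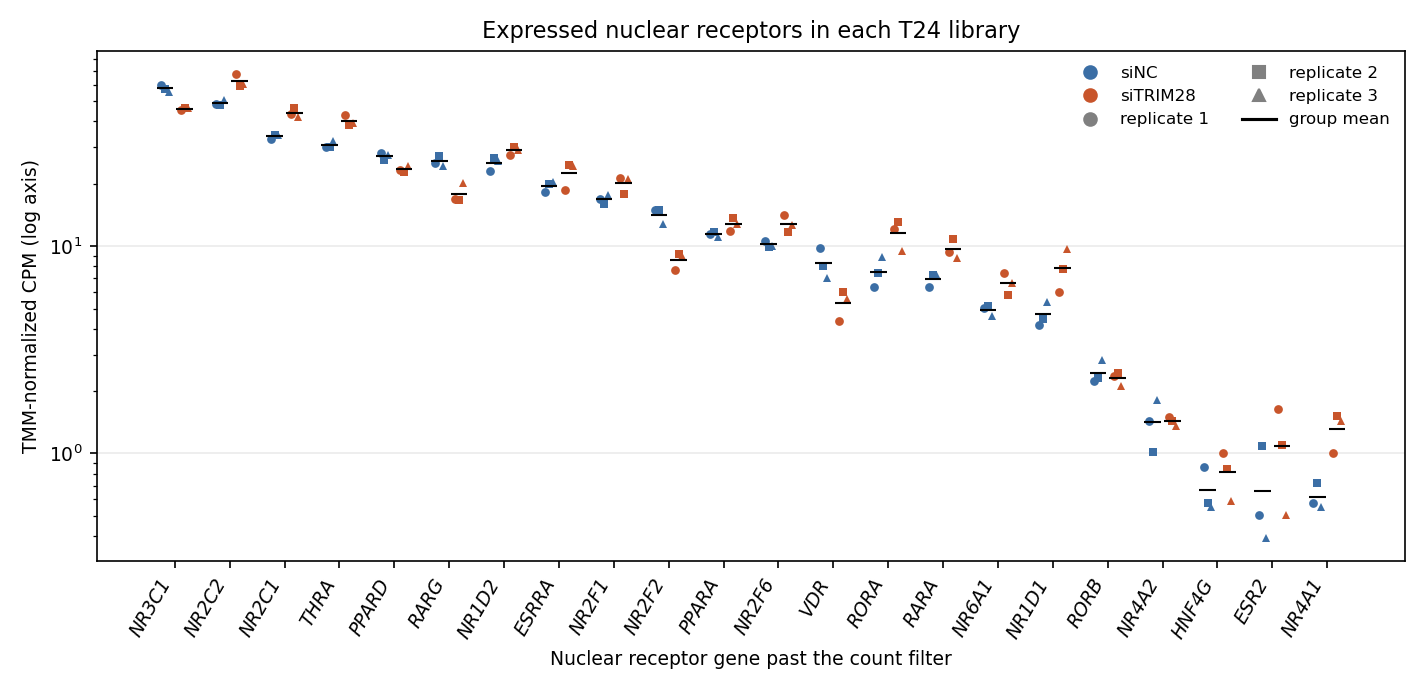
TMM-normalized CPM (log axis) of the 22 expressed receptor genes in each library, ordered by the siNC mean. Blue points are siNC, orange points siTRIM28, shapes mark the replicate number and bars the group mean. NR2F2, VDR and RARG have all 3 siTRIM28 libraries below all siNC libraries, and RORA, RARA and NR1D1 have all 3 above.

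Among the 15 silent members, NR1H4, the bile acid receptor, and NR0B1 had 0 reads in every library, which allows at most 0.214 to 0.256 CPM (3 reads) in a library, counting error only. RXRG, RARB, THRB, NR1I2, ESRRG, PGR, HNF4A and NR2E3 had between 0 and 2 reads in each library. ESRRB had 3, 3 and 1 reads in siNC and 6, 1 and 1 in siTRIM28. NR4A3 had 8, 5 and 6 against 7, 1 and 7, and the mineralocorticoid receptor NR3C2 had 2, 4 and 5 against 1, 0 and 0. Changes of such genes were not resolvable at this depth: NR3C2 was called lower only when all genes were tested with no filter (log2FC -2.97, adjusted p = 0.0486, edgeR), from 12 reads in all. The filter's edge ran between ESR2 and HNF4G, which reached 10 reads in exactly 3 libraries, and ESR1 and NR5A2, which reached it in 2 and 1. ESR1, the oestrogen receptor alpha, had 8, 3 and 4 reads in siNC and 12, 11 and 7 in siTRIM28. Its CPM did not overlap between groups, and with no filter its log2FC was 1.07 with an adjusted p of 0.103 in edgeR. NR5A2 had 4, 7 and 3 reads against 6, 10 and 4.

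Of the 22 expressed receptors, 16 differed between siTRIM28 and siNC at an adjusted p under 0.05 (edgeR), beside a background of 41.8% of all tested genes. Among these, 11 were higher after silencing (21.3% of tested genes were) and 5 were lower (20.5% were). Leaving out siNC replicate 1 or siNC replicate 3 left 7 members higher and 11 called in all, and 10 were called with DESeq2 or with the close replicates summed. Most shifts were small. The median log2FC over expressed members was 0.28 and the median size 0.37, beside 0.02 and 0.27 over all tested genes. Only NR2F2, VDR, RORA, NR1D1 and NR4A1 combined a call with a log2 size of 0.58 or more, which 17.0% of tested genes did. NR4A1 reached 10 reads in every siTRIM28 library but in only 1 siNC library, so its entry into these counts depended on the group in which it was high. With 10 reads required in every library, 15 members were called, 10 higher and 5 lower. The 2 groups of libraries did not overlap for 17 expressed members, as for 52.0% of tested genes.

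Of the 16 calls, 9 were kept under every alternative setting and every library left out: NR2F2, VDR, RARG and NR3C1 lower, and NR2C1, NR2C2, THRA, RARA and RORA higher. NR1D1 lost its call only when the close replicate pairs were each summed into 1 sample (log2FC 0.66, adjusted p = 0.0508, edgeR). The calls of NR1D2, NR2F1, NR2F6, NR4A1, NR6A1 and PPARD were lost with DESeq2 and on leaving out single libraries, which are given with each gene. No called receptor turned direction.

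**Figure D2:**
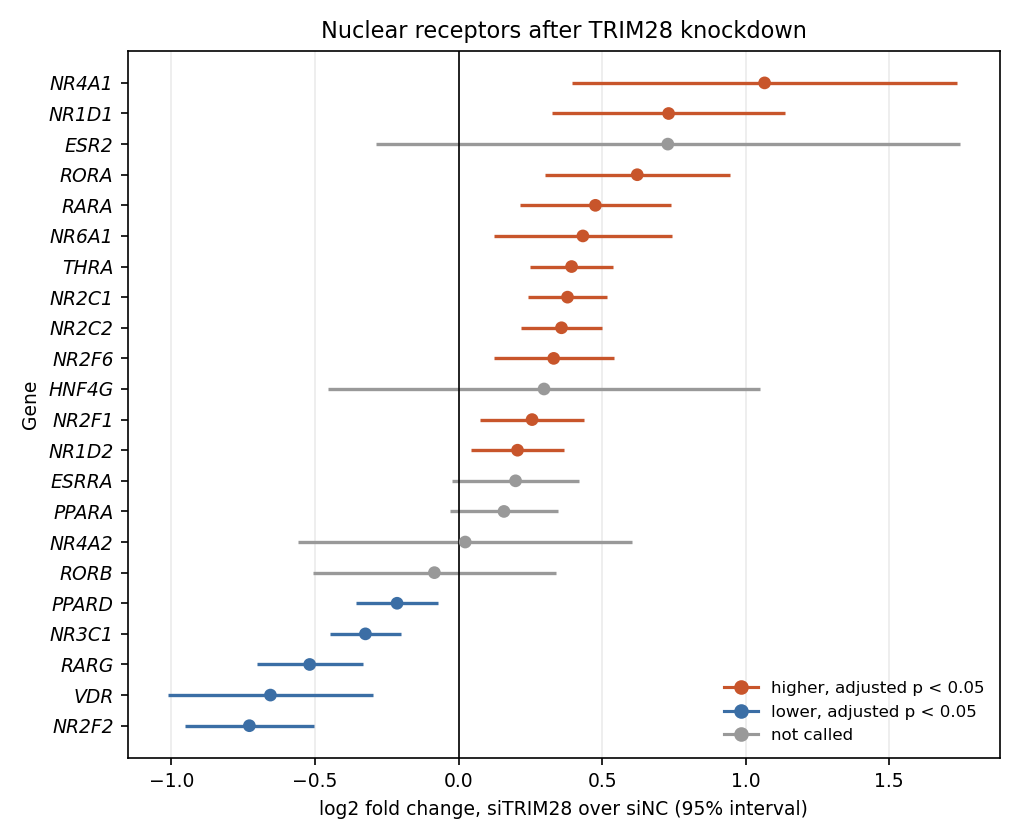
Log2 fold change of each of the 22 expressed receptors (points) with its 95% interval (lines) from edgeR; orange is higher, blue lower and grey not called at an adjusted p under 0.05. The called values run from -0.73 for NR2F2 to 1.07 for NR4A1, and most lie within 0.6 of 0.

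NR2F2, the COUP-TFII repressor known from vascular and mesenchymal development, fell most. It gave 15.0, 14.9 and 12.8 CPM in the siNC libraries and 7.71, 9.21 and 8.95 CPM in the siTRIM28 libraries, so that every silenced culture was below every control. The mean went from 14.2 ± 1.24 to 8.62 ± 0.799 CPM (n = 3), a log2FC of -0.73 (SE 0.103, adjusted p = 0.000158, edgeR). The level thus fell by 39.6%, and the gap was larger than the spread of either group. NR2F1, the closely related COUP-TFI, moved the other way with 16.9, 16.0 and 17.7 CPM in siNC and 21.4, 17.8 and 21.2 CPM in siTRIM28. The gap between groups was thin, since siTRIM28 replicate 2 barely exceeded siNC replicate 3. Its log2FC was 0.26 (SE 0.0833, adjusted p = 0.0275, edgeR). The call was lost without siNC replicate 1 (0.25), without siNC replicate 2 (0.21) and without siTRIM28 replicate 3 (0.21). NR2F6, the remaining COUP-TF member, known as a repressor in lymphocytes, rose from 10.2 ± 0.379 to 12.8 ± 1.25 CPM, a log2FC of 0.33 (adjusted p = 0.0151, edgeR). It lost its call without siNC replicate 2 (0.30), siNC replicate 3 (0.32) or siTRIM28 replicate 1 (0.25). Of the antisense partners, NR2F1-AS1 shares 158 exon bases with NR2F1 and had a log2FC of -0.07, and NR2F2-AS1 shares 0 exon bases with NR2F2 and had 0.03, neither called. NR2F6 shares 221 exon bases, 8.26% of its own, with the unnamed gene ENSG00000269095 on the same strand (log2FC 0.56, not called).

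The coding sequence of the first DNA-binding zinc finger is shown for NR2F1 and NR2F2 because the pair that moved in opposite directions is built to read the same DNA. Sequences are of GENCODE v29 on GRCh38, read 5′ to 3′ on the coding strand, with the 6 codons of the P box, which contacts the core DNA hexamer, in capitals. The finger of NR2F1 lies in exon 1 at chr5:93585279-93585347 (plus strand) and that of NR2F2 in exon 1 of the coding transcript used, at chr15:96332340-96332408 (plus strand).
NR2F1: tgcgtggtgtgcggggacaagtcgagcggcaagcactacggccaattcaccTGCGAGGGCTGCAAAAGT
NR2F2: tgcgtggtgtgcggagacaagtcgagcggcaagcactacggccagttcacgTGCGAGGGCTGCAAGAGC
The encoded finger is the same in 23 of 23 residues, with 64 of 69 bases shared. NR2F6 shares 22 of 23 residues with each of them. The 3 NR2F genes were the only members with this P box, and 1 of them fell while 2 rose. Over all tested genes 21.3% rose and 20.5% fell. The rises of NR2F1 and NR2F6 were not called with DESeq2 or with the close replicates summed.

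The retinoic acid receptors also moved in opposite directions. RARG, the receptor known from skin and stratified epithelia, gave 25.3, 27.4 and 24.3 CPM in siNC and 16.9, 16.8 and 20.1 CPM in siTRIM28. All silenced cultures were below all controls, with siTRIM28 replicate 3 the least reduced. The mean fell from 25.7 ± 1.57 to 17.9 ± 1.87 CPM, a log2FC of -0.52 (SE 0.0841, adjusted p = 0.000425, edgeR). RARA, the more broadly expressed receptor, gave 6.34, 7.30 and 7.21 CPM in siNC and 9.43, 10.8 and 8.78 CPM in siTRIM28. Here every silenced culture was above every control. The log2FC was 0.48 (SE 0.12, adjusted p = 0.00722, edgeR). RARA shares 291 exon bases, 6.15% of its own, with the unnamed gene ENSG00000278918 on the opposite strand (log2FC 0.48, not called). The part of shared reads in the RARA values was not tested. RARB, itself a classical retinoic acid target, was silent with at most 1 read in a library.

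The finger-coding sequences of RARA and RARG are shown for the same reason as the NR2F pair. Both are interrupted by an intron in the genome, with RARA spanning chr17:40348399-40349786 (plus strand) and RARG spanning chr12:53215432-53215711 (minus strand), and capitals again mark the P-box codons.
RARA: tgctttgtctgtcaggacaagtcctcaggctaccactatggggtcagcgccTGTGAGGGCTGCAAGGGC
RARG: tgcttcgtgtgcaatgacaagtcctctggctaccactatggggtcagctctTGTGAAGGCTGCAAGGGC
The encoded fingers shared 21 of 23 residues and 60 of 69 bases. The P box was identical, and it was the one carried by 21 members in all, the RXR-partner receptors among them. Of these 21 genes 15 were expressed, 9 rose and 3 fell. Over all tested genes 21.3% rose and 20.5% fell, and of the 22 expressed members 11 rose and 5 fell.

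Of 10 retinoic acid target genes in a textbook list, 4 were expressed and 1 was called, against 3 with upper-quartile scaling. The called share was 25%, beside 41.8% of all tested genes. The called gene was DHRS3, a retinaldehyde reductase, which had a log2FC of 0.56 (5.94 ± 0.828 to 8.75 ± 0.432 CPM, adjusted p = 0.00479, edgeR).

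VDR, the vitamin D receptor, gave 9.79, 8.02 and 7.06 CPM in siNC and 4.36, 6.0 and 5.57 CPM in siTRIM28. Both groups were spread widely but did not overlap. The mean fell from 8.29 ± 1.39 to 5.31 ± 0.852 CPM, a log2FC of -0.66 (SE 0.163, adjusted p = 0.00699, edgeR). Of 7 vitamin D receptor target genes only IGFBP3, which encodes an IGF-binding protein, was expressed, and it rose from 4.73 ± 0.543 to 11.3 ± 1.50 CPM (log2FC 1.24, adjusted p = 2.66e-05, edgeR). The vitamin D hydroxylase CYP24A1, the best known target, did not pass the filter.

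THRA, the thyroid hormone receptor alpha, gave 30.0, 30.0 and 32.1 CPM in siNC and 42.8, 38.5 and 39.5 CPM in siTRIM28. The groups were clearly separated. Its log2FC was 0.39 (SE 0.0657, adjusted p = 0.000521, edgeR), and THRB was silent with 0 reads in siNC and 2, 0 and 1 in siTRIM28. The fatty acid receptors shifted little. PPARD gave 28.1, 26.1 and 27.5 CPM in siNC and 23.2, 22.9 and 24.3 CPM in siTRIM28, a log2FC of -0.21 (SE 0.0649, adjusted p = 0.0197, edgeR). The groups did not overlap, yet the call was lost without siNC replicate 1 (-0.20), siNC replicate 3 (-0.21) or siTRIM28 replicate 2 (-0.20). PPARA, known for fatty acid oxidation in liver, had 11.4, 11.7 and 11.1 CPM in siNC and 11.9, 13.7 and 12.8 CPM in siTRIM28. These groups did not overlap either, but the log2FC of 0.16 (95% interval -0.03 to 0.35) was not called (adjusted p = 0.173, edgeR). Of 7 PPAR target genes 4 were expressed, of which 3 were called, each higher. The called share was 75%, beside 41.8% of all tested genes. ANGPTL4, an inhibitor of lipoprotein lipase, rose from 5.41 ± 0.252 to 16.5 ± 0.476 CPM (log2FC 1.61, adjusted p = 1.24e-07, edgeR). CPT1A, which carries fatty acids into mitochondria, had a log2FC of 0.59, and the lipid droplet protein PLIN2 had 0.30. The PLIN2 call was lost without siNC replicate 1 (0.28), siNC replicate 2 (0.29) or siTRIM28 replicate 2 (0.21).

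The REV-ERB and ROR receptors compete for the same DNA elements, REV-ERB as repressors and ROR as activators, and link the circadian clock to metabolism. All 4 were expressed, 3 rose and RORB was not called. The called share was 75%, beside 41.8% of all tested genes, and 21.3% of tested genes rose. RORA gave 6.34, 7.44 and 8.86 CPM in siNC and 12.1, 13.1 and 9.46 CPM in siTRIM28. The groups were separate, although siTRIM28 replicate 3 lay close to siNC replicate 3. The mean rose from 7.54 ± 1.27 to 11.6 ± 1.88 CPM, a log2FC of 0.62 (SE 0.147, adjusted p = 0.00508, edgeR). RORB, known from retina and brain, was at 2.46 ± 0.321 and 2.31 ± 0.175 CPM, with a log2FC of -0.08 (95% interval -0.51 to 0.34). NR1D1, or REV-ERB alpha, gave 4.18, 4.48 and 5.41 CPM in siNC and 6.0, 7.77 and 9.71 CPM in siTRIM28. Silenced cultures were all higher but spread over a wide range. The log2FC was 0.73 (SE 0.186, adjusted p = 0.00776, edgeR). NR1D2, or REV-ERB beta, was the more abundant of the pair and changed less, with 23.0, 26.7 and 25.7 CPM in siNC and 27.6, 30.1 and 29.2 CPM in siTRIM28. Its log2FC of 0.21 (adjusted p = 0.0429, edgeR) was lost as a call without siNC replicate 1 (0.14), siNC replicate 3 (0.22), siTRIM28 replicate 2 (0.18) or siTRIM28 replicate 3 (0.19).

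NR1D1 and THRA lie tail to tail on chromosome 17, on opposite strands. Their gene spans overlap by 1075 bases at chr17:40092793-40093867 (GRCh38), and 263 of these bases are exonic in both genes, which is 9.49% of the exon bases of NR1D1 and 3.78% of those of THRA. The library kit keeps strand, but the strand setting of the read counting is not given in the sources used here. Both genes rose, and the part of shared reads in these values was not tested.

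Of 15 clock genes 14 were expressed, 5 rose and 2 fell, a called share of 50%, beside 41.8% of all tested genes. The E-box repressors BHLHE40 and BHLHE41 rose most, BHLHE40 from 17.9 ± 0.101 to 41.9 ± 2.93 CPM (log2FC 1.23, adjusted p = 1.36e-07, edgeR) and BHLHE41 with a log2FC of 0.80. NFIL3, a repressor that is itself controlled by REV-ERB, had a log2FC of 0.45. Falls were seen for TEF, an activator of the same D-box elements (-0.81), and the period gene PER3 (-0.51). DBP, another D-box activator, moved the other way and rose (0.41, adjusted p = 0.0220, edgeR). NPAS2 rose as well (0.36, adjusted p = 0.0352, edgeR). The remaining 7 expressed clock genes were not called.

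Motif letters were searched on both strands in RefSeq promoters of GRCh38.p14, in the 250 bases upstream of each start, for 18 of the 22 expressed members that matched the table, with 36 promoters between them. The E-box CACGTG was in 6.34% of all 35116 promoters, and in a promoter of ESR2, NR1D2, NR2C1 and NR2F2 among members. A promoter of NR1D2 held this motif at 2 places, which 0.535% of all promoters did at 2 or more. It is shown because NR1D2 is a clock-controlled receptor, with the motifs in capitals, at chr3:23945946-23946041 (plus strand), outside annotated exons and 80 to 175 bases upstream of a start at 23946121.
NR1D2: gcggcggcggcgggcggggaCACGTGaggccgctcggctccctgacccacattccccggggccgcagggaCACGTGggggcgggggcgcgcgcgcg
The receptor hexamer AGGTCA was in 12.1% of all promoters and in those of ESR2 and RARA among members. The cAMP response element TGACGTCA was in 1.65% of all and in NR6A1 among members. These matches describe letters only.

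NR3C1, the glucocorticoid receptor, was one of the most abundant receptors and fell modestly. It gave 60.2, 57.6 and 55.4 CPM in siNC and 45.6, 46.4 and 46.4 CPM in siTRIM28. The silenced cultures were nearly equal and well below the controls. The mean went from 57.7 ± 2.42 to 46.1 ± 0.423 CPM, a log2FC of -0.32 (SE 0.0571, adjusted p = 0.000753, edgeR), so that it fell by 20.1%. Its finger is printed to show the P box of the glucocorticoid class, which NR3C1 shared with the silent NR3C2 and PGR and with no other member. It lies in exon 3 at chr5:143314024-143314092 (minus strand, GENCODE v29, GRCh38), with the P-box codons in capitals.
NR3C1: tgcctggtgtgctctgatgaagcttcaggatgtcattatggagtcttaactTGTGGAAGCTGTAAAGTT

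Of 9 glucocorticoid receptor target genes 7 were expressed, 2 rose and 1 fell, a called share of 42.9%, near the 41.8% of all tested genes. FKBP5, a cochaperone that lowers the receptor's hormone affinity and is induced by it, gave 58.3, 53.7 and 55.0 CPM in siNC and 26.1, 24.7 and 26.4 CPM in siTRIM28. It was cut to a similar level in every silenced culture, with a log2FC of -1.11 (SE 0.063, adjusted p = 1.24e-07, edgeR). TSC22D3, the anti-inflammatory GILZ gene, and DUSP1, a MAP kinase phosphatase, moved the other way with log2FC values of 0.52 and 0.50. The TSC22D3 call was lost without siNC replicate 1 (0.51), siNC replicate 3 (0.46), siTRIM28 replicate 2 (0.43) or siTRIM28 replicate 3 (0.46). Of 8 steroid receptor chaperone genes, all expressed, 2 rose and 4 fell, a called share of 75%. After FKBP5 the lower genes with the largest change were HSPA8, a constitutive HSP70 (-0.29), and HSP90AB1, a constitutive HSP90 (-0.28). The higher ones were the cochaperones DNAJB1 (0.20) and STIP1 (0.14). The DNAJB1 call was lost with any of the 3 siNC libraries, siTRIM28 replicate 1 (0.09) or siTRIM28 replicate 3 (0.22) left out, and was 0.20 without each of the siNC libraries. STIP1 lost its call without siNC replicate 1 (0.14), siNC replicate 2 (0.13) or siTRIM28 replicate 3 (0.12).

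Oestrogen receptors were scarce. ESR2 had 7, 15 and 5 reads in siNC and 23, 13 and 6 in siTRIM28, which overlapped broadly. Its log2FC of 0.73 (95% interval -0.29 to 1.75, adjusted p = 0.236, edgeR) was not called. The gene span of ESR2 overlaps that of SYNE2, a nuclear envelope gene on the opposite strand that had a log2FC of 0.64, with 0 exon bases shared. ESR2 also shares 523 exon bases, 5.6% of its own, with the unnamed gene ENSG00000214770 on the same strand (log2FC 0.59, not called). Of 5 oestrogen receptor target genes 2 were expressed, and CA12, a carbonic anhydrase, fell from 365 ± 9.49 to 248 ± 8.85 CPM (log2FC -0.56, adjusted p = 1.12e-06, edgeR). The called share was 50%, beside 41.8% of all tested genes. The other expressed gene, MYB, had a log2FC of -0.46 and was not called (adjusted p = 0.0539, edgeR). With 10 reads required in every library, 2 of these genes were called.

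ESRRA, an orphan receptor that drives mitochondrial genes with the PGC-1 coactivators, gave 18.3, 20.1 and 20.4 CPM in siNC and 18.8, 24.6 and 24.3 CPM in siTRIM28. One silenced culture, replicate 1, lay within the control range and the other two lay above it. The log2FC of 0.20 (95% interval -0.02 to 0.42) was not called (adjusted p = 0.138, edgeR), and it was called without siTRIM28 replicate 1 (0.32, adjusted p = 0.000647). Of 6 target genes 5 were expressed and 40% of these were called, beside 41.8% of all tested genes. IDH3A of the citric acid cycle (0.21) and ACADM of fatty acid oxidation (0.15) were called higher. Neither was called with DESeq2, with no filter or with the close replicates summed. IDH3A lost its call without siNC replicate 1 (0.18). ACADM lost its call without siNC replicate 1 (0.16), siNC replicate 2 (0.13), siNC replicate 3 (0.13), siTRIM28 replicate 1 (0.10) or siTRIM28 replicate 3 (0.16).

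The testicular receptors NR2C1 and NR2C2, orphan receptors that can act together as a heterodimer, rose in parallel. NR2C1 gave 33.0, 34.5 and 34.3 CPM in siNC and 43.6, 46.6 and 42.2 CPM in siTRIM28, a log2FC of 0.38 (SE 0.0623, adjusted p = 0.000467, edgeR). NR2C2 gave 48.3, 47.9 and 50.6 CPM against 67.8, 59.5 and 60.8 CPM, a log2FC of 0.36 (SE 0.0643, adjusted p = 0.000855, edgeR). In both genes every silenced culture exceeded every control. NR2C2 shares 1197 exon bases, 10.1% of its own, with MRPS25 on the opposite strand, a mitochondrial ribosomal gene that had a log2FC of 0.17. HNF4G, a receptor of gut and kidney epithelium, was near the filter, with 12, 8 and 7 reads in siNC and 14, 10 and 7 in siTRIM28 and a log2FC of 0.30 (95% interval -0.45 to 1.05).

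NR4A receptors act largely without a ligand and are induced rapidly by stimuli as immediate early genes. NR4A1 had 8, 10 and 7 reads in siNC and 14, 18 and 17 in siTRIM28, or 0.576, 0.722 and 0.549 against 1.00, 1.52 and 1.44 CPM. Silenced cultures were all above the controls, but the gene passed the filter through the 3 siTRIM28 libraries and 1 siNC library, and its entry into the test therefore depended on the group in which it was high. The log2FC was 1.07 (SE 0.306, adjusted p = 0.0151, edgeR). The call was lost without siNC replicate 1 (1.01), siNC replicate 3 (0.99) or siTRIM28 replicate 2 (0.95). NR4A2 had 20, 14 and 23 reads in siNC and 21, 17 and 16 in siTRIM28, with a log2FC of 0.02 (95% interval -0.56 to 0.61). Of 8 other immediate early genes 7 were expressed, 6 rose and 1 fell, a called share of 100%, beside 41.8% of all tested genes. EGR3 had the largest log2FC (2.50, adjusted p = 0.000289, edgeR) from 0.225 ± 0.0849 to 1.31 ± 0.256 CPM, followed by EGR1 (1.31) and FOSB (1.28). EGR3 (3, 2 and 4 reads against 16, 14 and 19) and FOSB (6, 8 and 3 against 14, 12 and 13) reached 10 reads only in the siTRIM28 libraries, so their entry into the test also depended on the group in which they were high. With 10 reads required in every library, 5 of these genes were called. ATF3, a stress-induced repressor, fell (-0.52), and lost its call without siNC replicate 2 (-0.42), siTRIM28 replicate 2 (-0.44) or siTRIM28 replicate 3 (-0.47).

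NR6A1, the germ cell nuclear factor that silences pluripotency genes, gave 5.04, 5.13 and 4.63 CPM in siNC and 7.43, 5.83 and 6.67 CPM in siTRIM28. The groups did not overlap. The log2FC was 0.43 (SE 0.141, adjusted p = 0.0276, edgeR), and the call was lost on leaving out any of siNC replicate 1 (0.44), siNC replicate 2 (0.45), siNC replicate 3 (0.39), siTRIM28 replicate 1 (0.34) or siTRIM28 replicate 3 (0.42).

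The balance between receptors of 1 subfamily was described by ratios. The log2 ratio of the CPM per kilobase of 2 related receptors was taken in each library for 9 pairs and compared by a two-sided exact permutation test, whose smallest possible p is 0.1 with 3 libraries a group, so that no pair could pass a threshold of 0.05 and the values are a description. NR2F1 over NR2F2 was 0.74, 0.67 and 1.03 in siNC and 2.03, 1.52 and 1.81 in siTRIM28. The groups did not overlap, and the ratio of the 2 genes went from 1.76 to 3.45 (difference in log2 ratio 0.97, exact p = 0.1, adjusted over the pairs 0.15). RARA over RARG was -1.88, -1.80 and -1.64 in siNC and -0.73, -0.52 and -1.08 in siTRIM28. These groups were likewise apart, and the ratio went from 0.293 to 0.583 (difference 0.99, exact p = 0.1, adjusted 0.15). RARG was still the more abundant of the pair after silencing. NR2F2 over NR2F6 differed by -1.04, RORA over RORB by 0.70, NR1D1 over NR1D2 by 0.51 and PPARA over PPARD by 0.37, each without overlap and each at the same exact p of 0.1. NR4A1 over NR4A2 differed by 1.04 with overlapping libraries (exact p = 0.2). The smallest differences, both with overlapping libraries, were those of NR2C1 over NR2C2 (0.02, exact p = 0.8) and NR2F1 over NR2F6 (-0.07, exact p = 0.4).

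**Figure D3:**
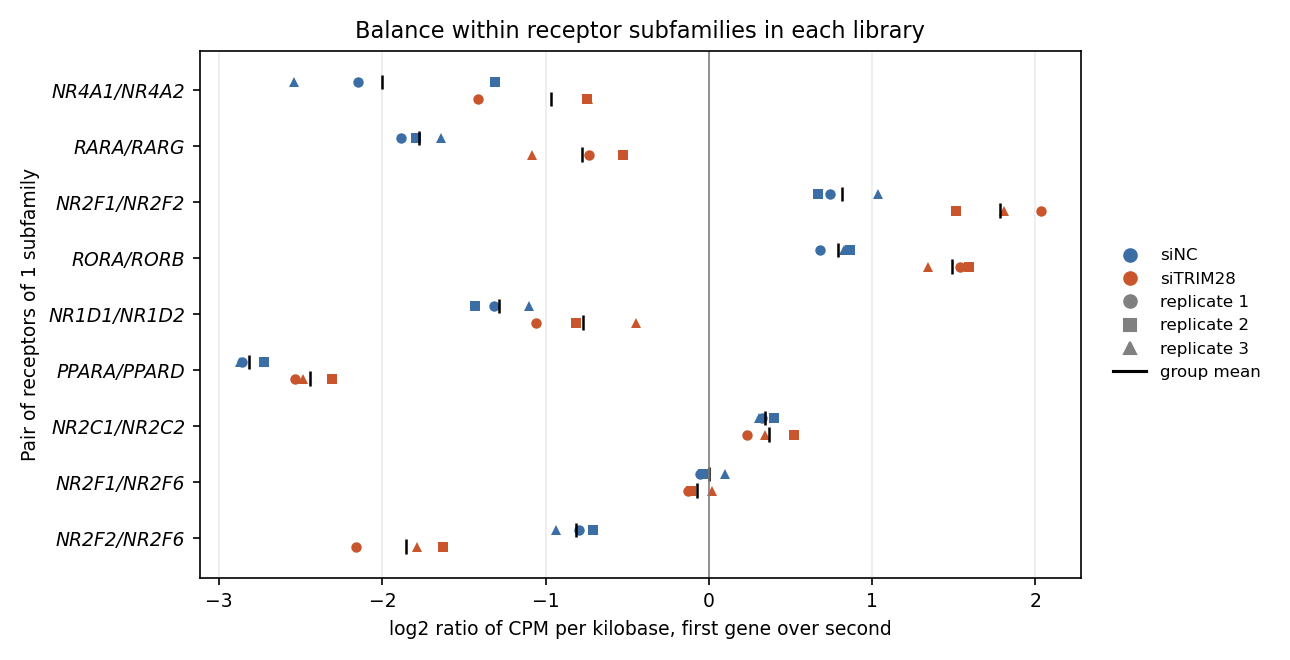
Log2 ratio of the CPM per kilobase of 2 receptors of 1 subfamily in each library for 9 pairs, with siNC in blue, siTRIM28 in orange, replicate numbers as shapes and group means as bars. The siTRIM28 means of NR2F1 over NR2F2 and RARA over RARG lie 0.97 and 0.99 to the right of the siNC means, while NR2C1 over NR2C2 and NR2F1 over NR2F6 overlap between groups.

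The dimer partners and coregulators of these receptors were compared in the same fit. Of the 11 nuclear receptors outside the set 7 were expressed, 1 rose and 3 fell. The called share was 57.1%, beside 41.8% of all tested genes. RXRA, an RXR partner of retinoid, vitamin D and PPAR receptors, gave 15.0, 15.0 and 15.2 CPM in siNC and 7.28, 6.25 and 6.17 CPM in siTRIM28. The drop was far outside the spread of either group, with a log2FC of -1.19 (SE 0.0949, adjusted p = 1.76e-06, edgeR). RXRB fell from 13.3 ± 0.633 to 9.24 ± 0.465 CPM (-0.53, adjusted p = 0.000522) in the same edgeR test, and RXRG was silent. The expressed RXR genes were therefore both lower. The expressed retinoid, thyroid, vitamin D and PPAR receptors of the set were mixed. Of these, VDR, RARG and PPARD were lower, RARA and THRA higher, and PPARA not called. The oxysterol receptor NR1H2 rose slightly (0.20, adjusted p = 0.00668, edgeR). PPARG RNA was at 7.14 and 7.52 CPM, with a log2FC of 0.07 (95% interval -0.24 to 0.38). NR1H3 (-0.35) and NR1I3 (-0.34) were not called, and NR1H3 was called without siNC replicate 3 (-0.49).

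Of 12 coactivator genes 11 were expressed, 4 rose and 4 fell, a called share of 72.7%, beside 41.8% of all tested genes. The arginine methyltransferase CARM1 gave 23.0, 23.5 and 23.1 CPM in siNC and 10.6, 13.4 and 10.9 CPM in siTRIM28 (log2FC -1.0, adjusted p = 3.74e-06, edgeR). NCOA2, a p160 coactivator, fell with a log2FC of -0.90 and PPRC1, a PGC-1 relative, with -0.38. In the other direction were PPARGC1B (0.44), TRIM24 (0.42) and the p160 coactivator NCOA3 (0.23). All 8 corepressor genes were expressed, 1 rose and 4 fell, a called share of 62.5%. With DESeq2 or with the close replicates summed 3 were called. TBL1X, a subunit of nuclear corepressor complexes, went from 38.3 ± 1.95 to 19.7 ± 1.86 CPM (-0.95, adjusted p = 2.32e-06, edgeR). NRIP1 (-0.31) was also lower, and LCOR (0.30) was higher. NRIP1 lost its call without siNC replicate 1 (-0.27) or siTRIM28 replicate 1 (-0.26). Over all 103 genes of these lists 76 were expressed and 47 were called, 28 higher and 19 lower, a called share of 61.8%. FKBP5, PER1 and PDK4 each stood in more than 1 list.

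**Figure D4:**
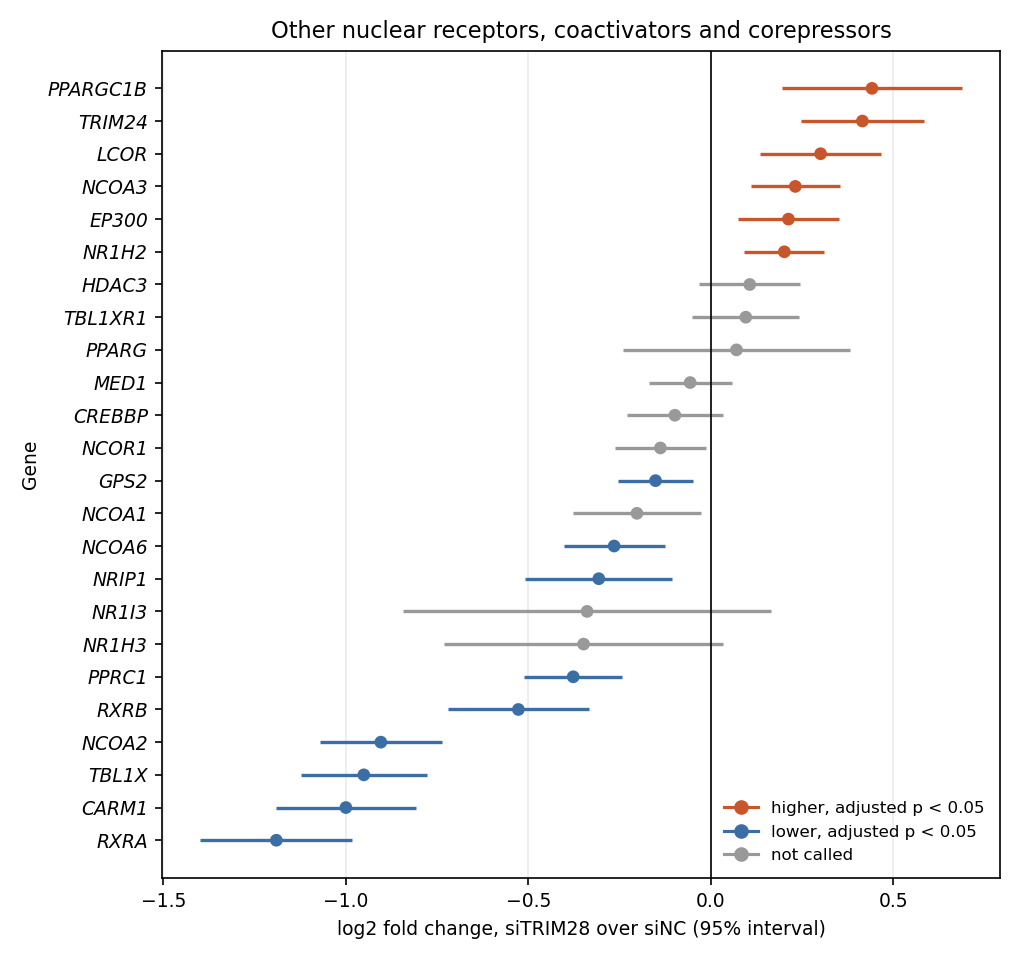
Log2 fold change with its 95% interval (edgeR) for the expressed nuclear receptors outside the set, the coactivators and the corepressors that are reported here; orange is higher, blue lower and grey not called at an adjusted p under 0.05. RXRA, CARM1, TBL1X and NCOA2 lie at -0.90 or below, and no gene in the plot lies above 0.44.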

How the data were processed

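T24 cultures labelled as biological replicates (3 siNC, 3 siTRIM28) were sequenced as poly(A) RNA. The deposited table holds raw counts of reads per gene, made by the authors; their processing notes name fastp 0.23.1, STAR 2.7.6a, featureCounts and GRCh38, whereas the strand setting is not given in the sources used here. A second deposited table, the authors' normalized values of genes they called changed, was not used. Groups followed the treatment labels. Genes with 10 or more counts in 3 or more libraries (18474) were tested in edgeR 4.0.16 (R 4.3.3) by glmQLFit and glmQLFTest with TMM scaling, and adjusted p under 0.05 was a call. SE was the log2 fold change over the root of F. Alternatives used limma 3.58.1 and DESeq2 1.42.0, other scalings and filters, a replicate block, single libraries left out and close replicates summed. Pair ratios used exact permutation (scipy 1.17.1). The scripts were tested on simulated data. All expressed members were named, with at most 3 called genes per direction of each list other than the clock genes. Members and lists were chosen with earlier results of these data known. Library totals of 11712623 to 14018052 counts limit precision for members under about 1 CPM. Intervals cover the spread between these libraries, and floors cover counting error only. The siNC replicates 1 and 2 and siTRIM28 replicates 2 and 3 differed by little more than counting noise (chi-square per degree of freedom 1.08 and 1.22). Whether these pairs were separate cultures, as labelled, was not tested, so the intervals and p values may not measure the spread between cultures. Individual values of some list genes that enter the counts are not reported here.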

Additional observations from a re-analysis of the deposited data

How the results depend on the processing

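Of the 327 values of expressed receptors and alternatives compared, 288 kept both direction and call status, 35 lost a call, 1 gained one and 3 changed sign, none of the last in a called receptor. The sign changes were NR4A2 at -0.18 without siNC replicate 2 and -0.02 without siTRIM28 replicate 1, and RORB at 0.023 without siNC replicate 3. With 1 library left out NR4A2 ranged from -0.18 to 0.22 and RORB from -0.16 to 0.023. Outside the set PPARG went to -0.0013 without siNC replicate 2 and -0.0040 without siTRIM28 replicate 2, in a range up to 0.18. The 16 called receptors became 10 with DESeq2, 10 with close replicates summed and 10 at an adjusted p under 0.01, of which 6, 5 and 6 were higher, in place of 11. Among the other genes named, ACADM, DNAJB1, IDH3A, NRIP1, PLIN2 and STIP1 lost their calls with DESeq2 and with close replicates summed. FOSB lost its call with DESeq2, and ATF3, NR1H2 and TSC22D3 with close replicates summed. ACADM and IDH3A also lost theirs with no filter. The stability of the DBP and NPAS2 calls is not reported here. NR1D2 also lost its call with RLE scaling (0.20) and no filter (0.20). Leaving out 1 library gave 11 to 15 called receptors, 7 to 10 higher and 4 to 5 lower, the fewest without siNC replicate 1 or siNC replicate 3 (7 higher in each). Replicate numbers did not pair the samples (correlations of 0.05, -0.01 and 0.04), and a replicate block gave 16 called receptors and 7910 called genes. Scaling by upper quartile put 56.6% of called genes higher, beside 51.1%. Depth limits the silent receptors and those near 1 CPM. The causes of the lost calls were not tested.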
